A study of Danio rerio with 20 samples.

Results

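Expression of 10 genes of the Nrf2 and redox defence system was followed in zebrafish larvae exposed to citalopram or ifosfamide. The genes were hmox1a, prdx1, gclm, gclc, nqo1, srxn1, keap1a, keap1b, nfe2l2a and sqstm1, selected by gene name. Each symbol matched 1 of the 38718 gene models in the deposited table, and 10 of 10 were among the 19723 models with a mean of at least 1 FPKM that were tested. FPKM stands for fragments per kilobase of transcript, here scaled between libraries by size factors and not by total reads. RNA from larvae was sequenced in 20 libraries, 4 per group. The groups were citalopram, a selective serotonin reuptake inhibitor, at 1000 and at 10 µg/L, ifosfamide, an alkylating anticancer prodrug, at 100 and at 1 µg/L, and a group named ERM. ERM is not spelled out in the labels, and its treatment label carries a concentration of 1 µg/L with no compound. ERM serves here as the group with neither drug because the design text lists it before the drug doses, and that reading could not be checked. Below, drug groups are named by drug and dose, and all doses are in µg/L. Per the design text each treatment had 5 beakers, 4 of which were sequenced. Libraries carry the letters A to D in the drug groups and A, B, C and E in ERM. The strain, the number of larvae per library, their age and the length of exposure are not given in the sources used here, so p-values measure the spread between these libraries.

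Nrf2, whose main zebrafish gene is nfe2l2a, is the transcription factor that turns on antioxidant and detoxifying enzymes when electrophiles or oxidants modify cysteines of its inhibitor Keap1. Unmodified Keap1 holds Nrf2 for ubiquitination and degradation, so the pathway is switched mainly at the level of Nrf2 protein, and its activity is usually read from the RNA of target genes such as gclm, prdx1, srxn1, hmox1a and nqo1. The autophagy receptor p62, encoded by sqstm1, can bind Keap1 and release Nrf2, and is itself an Nrf2 target in mammals. Larval zebrafish carry a working Nrf2 response and are often used to study it.

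With all libraries weighted equally, none of the 10 genes passed the test in any of the 6 comparisons or over all drug groups. prdx1, the peroxiredoxin of this set, stood nearest to doing so: its FPKM lay below every ERM library in all 4 libraries of each ifosfamide dose. hmox1a had the widest spread between libraries of 1 group, and its highest values were single libraries of each citalopram dose. Differences are those of group means on the log2(FPKM + 1) scale, which understates fold changes of genes near 1 FPKM, and were tested with limma, with p adjusted over all 19723 gene models and a threshold of 0.05. Each SE and interval comes from 1 fit of all 20 libraries, so the spread of all 5 groups enters it. In whole larvae, fewer cells of a type and less RNA per cell cannot be told apart.

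Depth was 10699832 to 17311011 reads per library, recovered from the FPKM steps. Library C of citalopram 1000 stood apart: reads fell on 25952 gene models there, against 28913 to 30110 in each of the other 19, and its deviations had a slope against gene length of -0.15 (log2 units per doubling of length), against slopes of -0.09 to 0.07 elsewhere. Its size factor was 0.684 at 13654523 reads, against factors of 0.887 to 1.33 in the other 19. For a given length, 1 read thus counted for more FPKM there than in any other library. Differences of the 10 genes and the list medians at that dose are also given without library C. Marker genes of muscle, lens, liver, gut, neurons, macrophages and neutrophils were present in every library, although mylpfa (muscle) was at 0 in 6 libraries, lyz (neutrophils) in 7, alas2 (red cells) in 9 and epcam (epidermis) in 16.

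Per length, and averaged over all 20 libraries, keap1b had the highest level of the 10 genes at 42.1 FPKM, followed by nfe2l2a at 38.9, sqstm1 at 33.3, nqo1 at 23.2, gclc at 15.4, hmox1a at 11.0, keap1a at 8.15, prdx1 at 7.05, gclm at 6.91 and srxn1 at 1.80 FPKM. Neighbours in that order were clearly separated at only some steps. sqstm1 exceeded nqo1 in 19 of 20 libraries, nqo1 exceeded gclc in 19, gclc exceeded hmox1a in 18 and gclm exceeded srxn1 in 20. Between keap1b and nfe2l2a (13 of 20 libraries), nfe2l2a and sqstm1 (14), hmox1a and keap1a (15) and keap1a and prdx1 (14) the order changed from library to library. prdx1 exceeded gclm in only 7 of 20 libraries, 3 of them ERM libraries. srxn1 was by far the lowest, with 3 to 22 reads per library, and its counting error, averaged per group, reached 39.1% of the level at ifosfamide 100, against 27.2% in ERM.

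**Figure D1:**
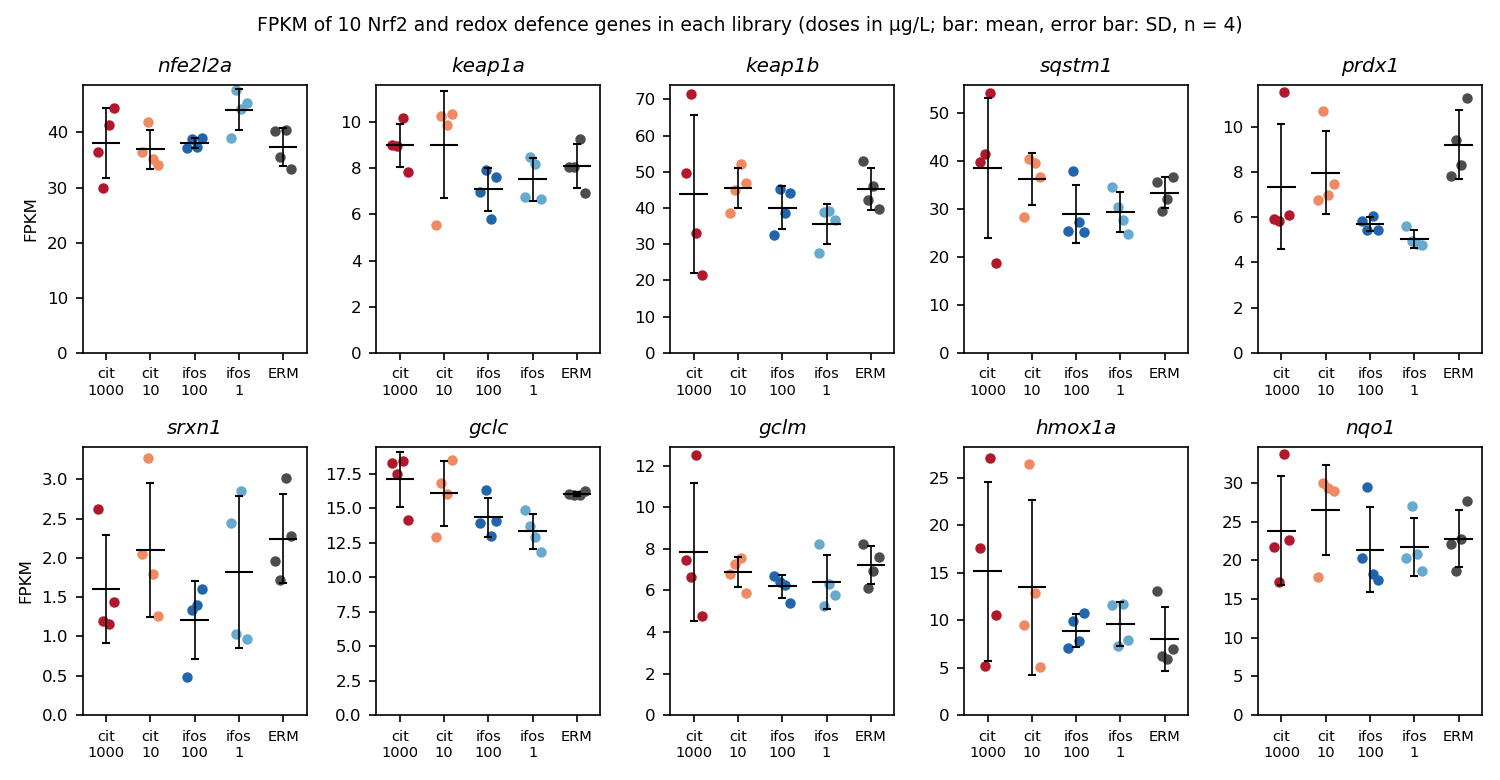
FPKM of the 10 genes (1 panel each, linear axis from 0) in each library of citalopram 1000 and 10, ifosfamide 100 and 1 and ERM. Points are libraries, bars are means and error bars SD (n = 4). The 8 ifosfamide libraries of prdx1 sit between 4.78 and 6.07 FPKM, all below the ERM libraries, while hmox1a ranges from 5.21 to 27.2 FPKM within citalopram 1000 alone.

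Among the regulators, nfe2l2a (ENSDARG00000042824, chr9:1654284-1683368, plus strand) is the main zebrafish Nrf2 gene. Its FPKM was 36.5, 29.9, 41.4 and 44.4 in the libraries of citalopram 1000 and 36.5, 42.0, 35.2 and 34.0 at 10 µg/L. It was 37.2, 38.8, 37.3 and 39.0 at ifosfamide 100 and 39.0, 47.8, 44.3 and 45.4 at 1 µg/L, against 40.2, 35.6, 40.4 and 33.4 in ERM. All groups overlapped ERM, and 3 of the 4 libraries at ifosfamide 1 lay above the highest ERM library. That group averaged 44.1 ± 3.70 FPKM, against 37.4 ± 3.45 in ERM (SD, n = 4 each), a log2 difference of 0.23 (SE 0.13, 95% interval -0.04 to 0.50, limma adjusted p = 0.787). At the other doses the difference from ERM was 0.01 (citalopram 1000), -0.02 (citalopram 10) and 0.03 (ifosfamide 100), and for citalopram 1000 -0.03 without library C. The intervals of these 3 spanned 0 and ran at most from -0.29 to 0.30. nfe2l2a was also among the steadiest genes: its within-group SD was smaller than that of all but 4.42% of the tested gene models.

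Zebrafish have 2 Keap1 genes, and both proteins can restrain Nrf2. keap1b (ENSDARG00000074634, chr6:131998-138603, minus strand) was the more abundant per length in every library, with a ratio of keap1b to keap1a FPKM of 2.73 to 7.99. Its FPKM was 49.8, 71.6, 33.0 and 21.5 at citalopram 1000, the widest range of any group, and 38.6, 44.9, 52.0 and 46.8 at 10 µg/L. At ifosfamide 100 it was 32.6, 45.2, 38.5 and 44.3, and at 1 µg/L 27.6, 38.9, 39.2 and 36.6, against 52.9, 42.2, 46.0 and 39.8 in ERM. Only ifosfamide 1 did not overlap ERM: its 4 libraries averaged 35.6 ± 5.42 FPKM against 45.2 ± 5.73 (SD, n = 4 each), and the highest of them, at 39.2 FPKM, lay just under the lowest ERM library at 39.8. The log2 difference there was -0.34 (SE 0.25, limma adjusted p = 0.787). This SE pools the spread of all 5 groups. The log2 SD of keap1b was 0.731 at citalopram 1000, against 0.231 at ifosfamide 1 and 0.175 in ERM. With scaling to total reads the difference was -0.17, but that scaling moves all gene models. Relative to their median the difference was -0.30 so scaled and -0.34 as deposited. In the deposited scaling the difference from ERM was -0.17 at ifosfamide 100, -0.17 at citalopram 1000 and 0.01 at citalopram 10. Single libraries set the value at citalopram 1000, which was -0.08 without library C and 0.12, with the opposite sign, without library D.

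keap1a (ENSDARG00000016132, chr2:41835025-41861040, minus strand), the other Keap1 gene, had FPKM values of 9.01, 8.97, 10.2 and 7.86 at citalopram 1000 and 5.56, 10.3, 9.90 and 10.4 at 10 µg/L. They were 6.98, 7.93, 5.80 and 7.64 at ifosfamide 100 and 6.77, 8.48, 8.20 and 6.69 at 1 µg/L, against 8.06, 8.08, 9.27 and 6.93 in ERM. Every group overlapped ERM, and library A of citalopram 10 was low, away from the other 3 of its group. The log2 differences from ERM were 0.14, 0.11, -0.17 and -0.09 in the order of these groups (SE 0.16 each), with limma adjusted p from 0.881 to 1.00. Without library C the first of them was 0.09. The quotient of nfe2l2a to keap1b, factor over its more abundant inhibitor, was looked at after the values were seen. It ran from 0.418 to 2.07 at citalopram 1000, 0.677 to 0.946 at citalopram 10, 0.860 to 1.14 at ifosfamide 100 and 1.13 to 1.41 at ifosfamide 1, against 0.760 to 0.878 in ERM. The ifosfamide 1 libraries were all above the ERM libraries in this quotient, which is a description with no test.

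sqstm1 (ENSDARG00000075014, chr14:16765992-16771405, plus strand) encodes p62. Its FPKM was 39.7, 41.4, 54.2 and 18.8 at citalopram 1000, 28.4, 40.5, 39.5 and 36.6 at citalopram 10, 25.4, 37.9, 27.2 and 25.3 at ifosfamide 100 and 34.5, 30.3, 27.7 and 24.7 at ifosfamide 1, against 35.5, 29.5, 32.0 and 36.6 in ERM. Libraries C and D of citalopram 1000 were the highest and the lowest of all 20, and no group stood clear of ERM. The log2 difference from ERM was 0.11 at both citalopram doses, -0.21 at ifosfamide 100 and -0.19 at ifosfamide 1 (SE 0.23 each), and the smallest limma adjusted p was 0.823. At citalopram 1000 the difference was -0.08 without library C, with the opposite sign, and 0.41 without library D. The model of mrnip overlaps that of sqstm1 on the opposite strand. The kit preserves strand, but whether the counting used it is not given in the sources used here.

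The thiol peroxidase gene prdx1 (ENSDARG00000058734, chr2:6104378-6115688, minus strand) encodes a peroxiredoxin that reduces hydrogen peroxide at the expense of thioredoxin, and is a well-established Nrf2 target in vertebrates. At ifosfamide 100 its FPKM was 5.80, 5.44, 6.07 and 5.42, and at ifosfamide 1 5.63, 4.94, 4.83 and 4.78, against 7.81, 9.42, 8.32 and 11.3 in ERM. All 8 ifosfamide libraries were below the lowest ERM library. The group at 100 µg/L averaged 5.68 ± 0.313 FPKM and that at 1 µg/L 5.04 ± 0.394, against 9.21 ± 1.54 in ERM (SD, n = 4 each). The log2 difference from ERM was -0.60 at 100 µg/L (SE 0.18, 95% interval -0.98 to -0.23, unadjusted p = 0.00331, limma adjusted p = 0.920). At 1 µg/L it was -0.75 (SE 0.18, 95% interval -1.12 to -0.37, unadjusted p = 0.000513, limma adjusted p = 0.694). Neither passed the threshold after adjustment, and the doses did not differ past it from each other (0.15 for 100 minus 1 µg/L, 95% interval -0.23 to 0.52, limma adjusted p = 1.00).

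At citalopram 1000 the prdx1 FPKM was 5.93, 5.83, 11.5 and 6.11, and at citalopram 10 6.75, 10.7, 6.97 and 7.44. Libraries A, B and D of the high dose and A, C and D of the low dose were below every ERM library, while C of the high dose and B of the low dose lay within or above the ERM range. The log2 difference from ERM was -0.33 at 1000 µg/L (SE 0.18, 95% interval -0.70 to 0.05, limma adjusted p = 0.765) and -0.20 at 10 µg/L (SE 0.18, 95% interval -0.57 to 0.18, limma adjusted p = 1.00). Without library B the low-dose difference was -0.33, and without library C the high-dose difference was -0.54 (limma adjusted p = 0.245). Across both drugs, 14 of 16 drug libraries thus lay below the lowest ERM library. A count of at least 14 of 16 on 1 side of the ERM range, a limit set after the prdx1 values were seen, was met by 1.02% of the tested gene models. The 2 exceptions were the 2 libraries highest in hmox1a. In the test over all 4 drug groups prdx1 had an unadjusted p of 0.00349 and a limma adjusted p of 0.568.

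The call on prdx1 depended on how libraries were weighted. When limma down-weighted the more variable libraries, prdx1 passed at both ifosfamide doses, with a log2 difference of -0.62 (adjusted p = 0.0248) at 100 µg/L and -0.78 (adjusted p = 0.00232) at 1 µg/L. In that fit 2.07% of all tested gene models passed as lower at 100 µg/L and 5.66% at 1 µg/L, where none did with equal weights. In limma fits with equal weights, it did not pass in the fit of the 8 libraries compared (adjusted p = 0.348 at 100 µg/L and 0.209 at 1 µg/L) or without library C of citalopram 1000 (0.241 and 0.0707). Counting error of prdx1 was 6.30% and 6.53% of the level at ifosfamide 100 and 1, about as large as the spread between their libraries (5.51% and 7.81%), against 5.02% of counting error and a spread of 16.7% in ERM.

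Marker sums of several tissues also averaged lower in the ifosfamide groups than in ERM. The sum of 4 red cell genes was 78.8 to 140.2 FPKM at ifosfamide 100 and 82.3 to 137 at 1 µg/L, against 140.0 to 239 in ERM. The epidermis sum was 1761 to 2970.1 and 2138 to 2837 FPKM at 100 and 1 µg/L, against 2945 to 3657 in ERM, the gut sum 539 to 1184 and 643 to 990.0, against 991 to 1154, the liver sum 1419.5 to 2519 and 1356 to 2131, against 1978 to 2342, and the muscle sum 9103 to 15749 and 8465 to 14433, against 12644 to 17525. The red cell sum was mostly hbbe1.1, at 74.7 to 409 FPKM over all libraries, with hbbe2, slc4a1a and alas2 at most 13.7, 4.83 and 0.148. The epidermis sum was nearly all krt4 and cyt1, with krt5 at most 0.722 FPKM and epcam at most 0.156. Of 9 marker lists, 3 (red cells, epidermis and gut) lay below every ERM library at ifosfamide 1 and 0 at ifosfamide 100, and at citalopram 1000 and 10 0 of 9 lists stood clear of ERM. Neuron sums ran from 269 to 304 FPKM at ifosfamide 100 and 268 to 313 at 1 µg/L, against 245 to 307 in ERM, with overlap, as did macrophage sums (8.34 to 10.8 and 7.18 to 11.8, against 8.23 to 11.0), neutrophil sums (5.66 to 7.95 and 5.64 to 10.1, against 3.96 to 7.95) and lens sums (355 to 875 and 235 to 1663, against 430.2 to 1747). Their part in the prdx1, gclc and keap1b values was not tested.

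srxn1 (ENSDARG00000079160, chr8:28547687-28549133, plus strand) encodes sulfiredoxin, which restores peroxiredoxins whose active cysteine has been over-oxidised, and is a sensitive Nrf2 target in mammals. Its FPKM was 2.62, 1.198, 1.15 and 1.44 at citalopram 1000, 2.05, 3.28, 1.79 and 1.26 at citalopram 10, 0.486, 1.34, 1.40 and 1.61 at ifosfamide 100 and 2.44, 1.04, 2.86 and 0.965 at ifosfamide 1, against 1.96, 1.71, 3.02 and 2.28 in ERM. The 4 libraries at ifosfamide 100 were below every ERM library, and the other 3 drug groups overlapped ERM. The highest of the 4, library D, held 11 reads, as did ERM libraries A and B, so its place below those rests on the scaling. At 100 µg/L the group held 31 reads in all, against 57 in ERM, and averaged 1.21 ± 0.496 FPKM, against 2.24 ± 0.567 (SD, n = 4 each). The log2 difference was -0.57 (SE 0.25, 95% interval -1.10 to -0.04, unadjusted p = 0.0367, limma adjusted p = 0.920), and -0.39 without library A, which held 3 reads. With a pseudocount of 0.1 it was -0.92, more than 1.5 times as large, since srxn1 lies near 1 FPKM. The differences of the other groups from ERM were -0.34 (citalopram 1000), -0.09 (citalopram 10) and -0.25 (ifosfamide 1), all with intervals that span 0, and without library C the first was -0.26.

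Glutamate-cysteine ligase, which makes the rate-limiting step of glutathione synthesis, consists of a catalytic subunit, gclc, and a modifier subunit, gclm. gclc (ENSDARG00000013095, chr13:2357637-2392664, plus strand) had the smallest within-group spread of the 10 genes, below that of all but 3.89% of the tested gene models. Its FPKM was 18.3, 17.5, 18.4 and 14.2 at citalopram 1000, 12.9, 16.8, 16.0 and 18.5 at citalopram 10, 13.9, 16.3, 13.0 and 14.1 at ifosfamide 100 and 14.8, 13.7, 12.9 and 11.8 at ifosfamide 1, against 16.0, 15.9, 16.0 and 16.2 in ERM. The 4 libraries at ifosfamide 1 lay below ERM, and at ifosfamide 100 3 of 4 did. The ERM libraries spanned only 15.9 to 16.2 FPKM, a spread of 0.820% where counting error alone is 4.04%, so 15 of the 16 drug libraries fell outside that range, 9 below and 6 above. The group at ifosfamide 1 averaged 13.3 ± 1.28 FPKM, against 16.0 ± 0.131 in ERM (SD, n = 4 each), a log2 difference of -0.26 (SE 0.13, 95% interval -0.52 to 0.01, limma adjusted p = 0.787). With library weights this difference was -0.27 and passed (adjusted p = 0.0382), in the fit in which 5.66% of all tested gene models passed as lower. With scaling to total reads it was -0.09 (adjusted p = 0.806), but that scaling moves all gene models. Relative to their median the difference was -0.22 so scaled and -0.25 as deposited. At the other doses the difference was 0.08 (citalopram 1000), -0.01 (citalopram 10) and -0.16 (ifosfamide 100), the first being 0.04 without library C. A clone-based gene model overlaps gclc on the same strand, and how reads of the shared stretch were counted is not given in the sources used here.

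gclm (ENSDARG00000018953, chr8:15269423-15277252, plus strand), often the more responsive subunit gene when Nrf2 is activated in mammals, had FPKM values of 7.45, 6.64, 12.5 and 4.77 at citalopram 1000 and 6.82, 7.27, 7.56 and 5.88 at 10 µg/L. They were 6.70, 6.42, 6.25 and 5.41 at ifosfamide 100 and 8.24, 5.26, 6.30 and 5.79 at 1 µg/L, against 8.26, 6.11, 6.95 and 7.60 in ERM. Library C of citalopram 1000 was the highest and library D of the same dose the lowest of all 20, and each group overlapped ERM. The log2 differences from ERM were 0.04 (citalopram 1000), -0.06 (citalopram 10), -0.19 (ifosfamide 100) and -0.16 (ifosfamide 1), with SE 0.19 each and limma adjusted p from 0.818 to 1.00. Without library C the difference at citalopram 1000 was -0.19, with the opposite sign. The ratio of gclc to gclm FPKM ranged from 1.47 to 3.15 over the 20 libraries, and from 1.94 to 2.61 within ERM.

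hmox1a (ENSDARG00000027529, chr3:26011482-26017831, minus strand) encodes haem oxygenase 1, which breaks haem down to biliverdin, iron and carbon monoxide and is a classic marker of oxidative and haem stress. At citalopram 1000 its FPKM was 17.6, 5.21, 27.2 and 10.6, and at citalopram 10 9.54, 26.5, 12.8 and 5.06, against 13.0, 6.24, 5.92 and 7.00 in ERM. Libraries A and C of the high dose and B of the low dose were above every ERM library, and library B of the high dose and D of the low dose were below every ERM library. The high dose averaged 15.1 ± 9.49 FPKM and the low dose 13.5 ± 9.24, against 8.05 ± 3.36 in ERM (SD, n = 4 each). The log2 difference from ERM was 0.69 at 1000 µg/L (SE 0.41, 95% interval -0.18 to 1.55, limma adjusted p = 0.808) and 0.53 at 10 µg/L (95% interval -0.34 to 1.39, limma adjusted p = 1.00).

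Single libraries carried these hmox1a values. Without library C the high-dose difference was 0.35, without library B it was 1.07, and without library B of citalopram 10 the low-dose difference was 0.15, or 0.87 without its library D. In ERM, library A at 13.0 FPKM stood above the other 3, and without it the differences were 0.92 and 0.76 at citalopram 1000 and 10. Both libraries highest in hmox1a also stood apart in marker sums. In library B of citalopram 10 the neutrophil sum was 22.0 FPKM, against 5.99 to 8.38 in the other 3 of its group, and the macrophage sum 14.1, against 7.37 to 11.8, both the highest of all 20. Most of that neutrophil sum came from mmp13a alone. Over all 20 libraries mpx reached at most 7.16 FPKM and lyz at most 3.09, against 17.1 for mmp13a. In library C of citalopram 1000 the muscle sum was 29224 FPKM, against 8477 to 13089 in the other 3, the liver sum 5327, against 1444 to 2885, the epidermis sum 5875, against 2199.6 to 2988, and the red cell sum 422, against 189 to 217. These 4 sums, and those of gut, lens and neurons, were the highest of all 20 libraries. Library C also had the lowest size factor (0.684, at 13654523 reads), which raises the FPKM of all its genes relative to scaling by total reads. The part of the marker sums in the hmox1a values was not tested. The within-group SD of hmox1a exceeded that of 95.7% of the tested gene models, while counting error was only 5.92% to 7.80% of its level. At ifosfamide 100 the FPKM was 7.09, 9.93, 7.84 and 10.8, and at ifosfamide 1 11.6, 7.33, 11.7 and 7.87. These values fell within the ERM range, and their log2 differences from ERM were 0.18 (95% interval -0.69 to 1.04) and 0.27 (95% interval -0.60 to 1.13). Those intervals pool the spread of all 5 groups. The log2 SD of hmox1a was 0.938 and 0.907 at citalopram 1000 and 10. It was 0.254 and 0.323 at ifosfamide 100 and 1, and 0.473 in ERM.

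nqo1 (ENSDARG00000010250, chr7:56703254-56722320, plus strand) encodes NAD(P)H quinone dehydrogenase 1, which reduces quinones without releasing semiquinone radicals and is the standard Nrf2 target gene in mammalian cells. Its FPKM was 21.7, 17.2, 33.8 and 22.6 at citalopram 1000, 17.8, 30.0, 29.4 and 29.0 at citalopram 10, 20.3, 29.5, 18.3 and 17.5 at ifosfamide 100 and 20.3, 27.1, 20.8 and 18.6 at ifosfamide 1, against 22.1, 18.7, 22.7 and 27.6 in ERM. At citalopram 10 3 of 4 libraries were above the highest ERM library and library A was below the lowest. That group averaged 26.5 ± 5.83 FPKM, against 22.8 ± 3.69 in ERM (SD, n = 4 each), a log2 difference of 0.20 (SE 0.21, 95% interval -0.25 to 0.64, limma adjusted p = 1.00). The differences at the other doses were 0.03 (citalopram 1000), -0.10 (ifosfamide 100) and -0.07 (ifosfamide 1), each less than its SE of 0.21. Without library C the difference at citalopram 1000 was -0.14, with the opposite sign.

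**Figure D2:**
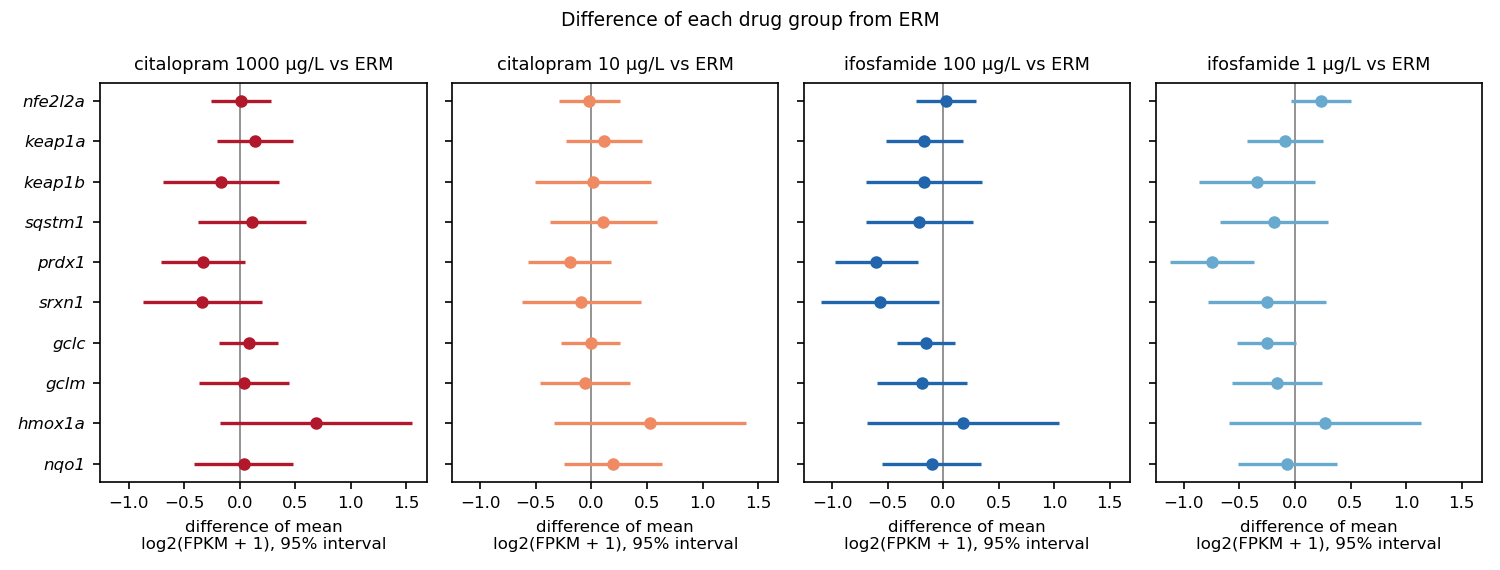
Difference of mean log2(FPKM + 1) from ERM for the 10 genes (rows) in each drug group (panels), with 95% intervals from the limma model of all 20 libraries. The spread of all 5 groups enters each interval. The interval of prdx1 lies below 0 at both ifosfamide doses and that of srxn1 at ifosfamide 100. All other intervals include 0, and no difference passed after adjustment over all gene models.

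Counted by comparison, 0 of 10 genes passed in citalopram 1000 against ERM by limma, where 0.0304% of all tested gene models did. 0 of 10 had an unadjusted p under 0.05 (7.27% of all) and 0 of 10 did not overlap ERM (3.68% of all). At citalopram 10 the counts were again 0 of 10 past the threshold (0.0101% of all), 0 at an unadjusted p under 0.05 (2.42%) and 0 without overlap (2.51%). Ifosfamide 100 gave 0 of 10 past the threshold (0% of all), 2 at an unadjusted p under 0.05, prdx1 and srxn1 (3.27% of all), and the same 2 without overlap (4.3%). Ifosfamide 1 gave 0 of 10 past the threshold (0% of all), 1 at an unadjusted p under 0.05, prdx1 (4.8% of all), and 3 without overlap, prdx1, gclc and keap1b (6.98%). In the test over all drug groups 0 of 10 passed (0% of all) and 1, prdx1, had an unadjusted p under 0.05 (5.77% of all). With voom on the recovered reads 0 of 10 passed in each of the 6 comparisons, and prdx1 alone had an unadjusted p under 0.05, at citalopram 1000 and at both ifosfamide doses.

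Between the doses of each drug, none of the 10 genes passed. In citalopram 1000 against 10, 0 of 10 passed by limma (0% of all), 0 had an unadjusted p under 0.05 (3.67%) and 0 did not overlap (1.28%). The largest difference there was -0.25 for srxn1 (95% interval -0.78 to 0.29). In ifosfamide 100 against 1, 0 of 10 passed (0% of all), 0 had an unadjusted p under 0.05 (0.852%) and 1 did not overlap, nfe2l2a (1.17% of all). nfe2l2a was 37.2 to 39.0 FPKM at 100 µg/L, against 39.0 to 47.8 at 1 µg/L, the nearest values of the doses being equal at this rounding, with a log2 difference of -0.20 (95% interval -0.48 to 0.07, limma adjusted p = 1.00).

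Over the 10 genes, the median difference from ERM was 0.04 at citalopram 1000 and 0.00 at citalopram 10, with 7 and 5 of 10 above 0. It was -0.17 at both ifosfamide doses, with 8 of 10 below 0 at each, where the median of all tested gene models was -0.01. nfe2l2a and hmox1a were the 2 above 0 at both ifosfamide doses. Over all tested gene models, 50.1% were above 0 at citalopram 1000, 49.6% at citalopram 10, 48.4% at ifosfamide 100 and 48.9% at ifosfamide 1. These comparisons share the ERM libraries, so a deviation of ERM enters each of them. Without library C of citalopram 1000, the median of that dose was -0.08, with 3 of 10 above 0. With total reads as the scaling, the median over all gene models shifted by 0.10 and 0.13 at ifosfamide 100 and 1. The median of the 10 genes, relative to that of all, was then -0.14 and -0.14, against -0.16 and -0.17 as deposited.

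The spread of the 10 genes between libraries followed that of all genes. The median SD of the 10 genes on the log2 scale was 0.406 at citalopram 1000, 0.251 at citalopram 10, 0.194 at ifosfamide 100 and 0.210 at ifosfamide 1, against 0.169 in ERM. The same medians over all tested gene models were 0.407, 0.251, 0.231 and 0.219, against 0.197 in ERM. In citalopram 1000, library C held the highest value for 7 of 10 genes (hmox1a, prdx1, gclm, gclc, nqo1, keap1a and sqstm1) and the lowest for srxn1. Over all tested gene models it held the highest value for 38.9% and the lowest for 39.1%. Its FPKM rest on the lowest size factor of all 20 libraries (0.684). In recovered reads, which are not corrected for depth, library C was the lowest of its group for gclc (489) and keap1a (254), and not for the other 5 of these 7 genes. The muscle, liver, epidermis, red cell, gut, lens and neuron sums of library C were the highest of all 20. Their part in these values, and that of scaling, was not tested. Library D of that dose was lowest for 5 of 10 genes and for 31.4% of all gene models. At citalopram 10, library B was highest for 6 of 10 (20.3% of all) and library A lowest for 6 of 10 (28.1% of all).

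**Figure D3:**
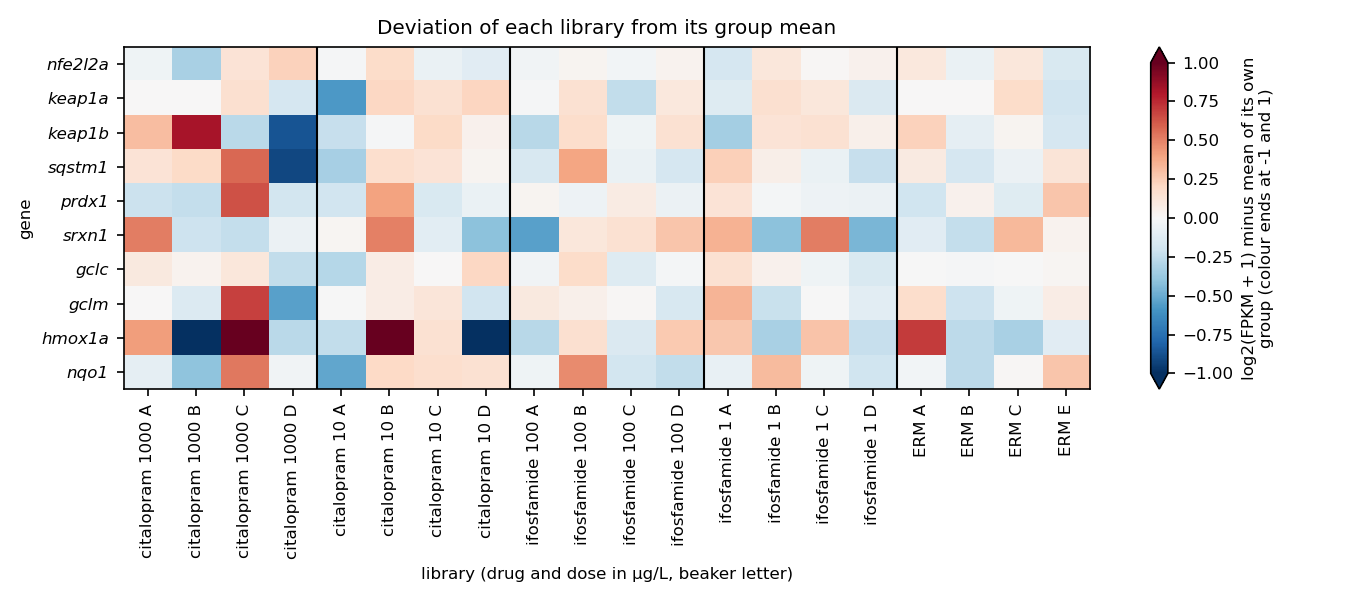
Deviation of log2(FPKM + 1) of the 10 genes (rows) from the mean of their own group in each of the 20 libraries (columns, grouped by drug and dose in µg/L, ERM last). Red is above and blue below the group mean. Library C of citalopram 1000 is above its group mean for 8 of 10 genes, and hmox1a has the strongest colours.

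Whether the genes moved together between libraries of 1 group was asked after each group mean was subtracted, over 45 pairs and 20 libraries. 37 of the 45 Pearson correlations were positive and 8 negative, with a median r of 0.31, or 0.20 without library C of citalopram 1000. The same count for pairs of other gene models is not given here, so it cannot be read as particular to the 10 genes. The highest r, that of gclc and sqstm1, lay at the threshold after Benjamini-Hochberg adjustment over the 45 pairs. Pearson's r was 0.80 (100000 random permutations, p = 0.00114, adjusted p = 0.0513) and Spearman's rho 0.86 (permutation p = 0.00107, adjusted p = 0.0481). Since different random draws put Pearson's adjusted p on either side of 0.05, all permutations were also enumerated, and the exact adjusted p was 0.0473 for r and 0.0432 for rho. No other pair passed in either test. r was 0.70 without the 2 libraries farthest from the median of gclc and 0.81 without library C. Permutations were two-sided and within groups, and the values share library and depth. hmox1a and prdx1, by contrast, gave r = 0.53 (permutation p = 0.129, adjusted p = 0.416; rho = 0.32, permutation p = 0.268, adjusted p = 0.659), and r = 0.06 without library B of citalopram 10 and library C of citalopram 1000, so that relation rests on those libraries. The 2 Keap1 genes gave r = 0.36 (adjusted p = 0.244; rho = 0.33; permutation tests), and keap1b with nfe2l2a the most negative r of -0.46 (permutation, adjusted p = 0.593; rho = -0.12), which was 0.28 without libraries B and D of citalopram 1000.

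**Figure D4:**
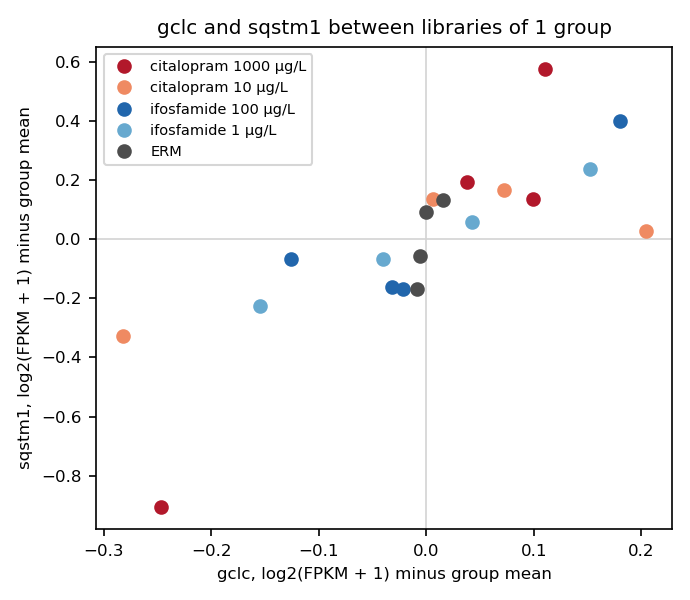
log2(FPKM + 1) of sqstm1 (vertical) against gclc (horizontal), each minus its group mean, for the 20 libraries coloured by group. Pearson's r is 0.80, and library D of citalopram 1000 is the lowest point in sqstm1.

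Likeness to hmox1a, prdx1 and gclm was searched among tested gene models with an Ensembl identifier and no placeholder symbol. Those most like hmox1a between libraries of 1 group, by Pearson's r over 20 libraries, were glipr2l (r = 0.84), esco2 (0.84) and cnn2 (0.80). Without library C of citalopram 1000 these were 0.82, 0.86 and 0.73. For prdx1 they were rsad2 (r = 0.88, or 0.83 without library C), mydgf (0.87 and 0.67) and nusap1 (0.86 and 0.68). For gclm they were sf3b6 (r = 0.94 and 0.87), ppp1r14aa (0.94 and 0.87) and gpx1b (0.93 and 0.83), the last of which encodes a glutathione peroxidase. These are the highest values of a search over the tested gene models so named, and are given as a description. Gene models left out of that search may be more alike. Spearman's rho was lower for each of them, from 0.65 (mydgf) to 0.87 (sf3b6). glipr2l, esco2, rsad2 and nusap1 averaged only 1.77, 1.02, 1.02 and 1.84 FPKM, near the filter of 1 FPKM.

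Around the 10 genes, 8 lists of pathway genes with 104 tested gene models (1 of them in 2 lists) gave 0 past the threshold in each of the 4 comparisons with ERM by limma, as the 10 genes did. voom on recovered reads also gave 0 in each. With library weights limma called 0 higher (0.132% of all gene models) and 1 lower (0.715% of all) at citalopram 1000, and 0 higher (0.0254%) and 0 lower (0.00507%) at citalopram 10. At ifosfamide 100 it called 0 higher (2.29%) and 6 lower (2.07%), and at ifosfamide 1 3 higher (4.65%) and 9 lower (5.66%). With equal weights and at an unadjusted p under 0.05, 4 were higher and 6 lower at citalopram 1000, 1 and 1 at citalopram 10, 0 and 4 at ifosfamide 100, and 1 and 4 at ifosfamide 1. Over all tested gene models, unadjusted p under 0.05 was met by 7.27%, 2.42%, 3.27% and 4.8% in the same order of groups. Without overlap, 0 of the 104 lay above and 4 below ERM at citalopram 1000, and 0 and 1 at citalopram 10. These counts were 0 and 5 at ifosfamide 100, and 1 and 10 at ifosfamide 1. Of all tested gene models, 3.68%, 2.51%, 4.3% and 6.98% did not overlap ERM, in either direction.

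Genes of the thioredoxin and glutathione systems, in which prdx1 and gclc act, lay mostly below ERM in the ifosfamide groups, without passing the test. The lists were chosen with earlier results of these data known, so their counts and medians are a description. In the list for thioredoxin and peroxiredoxin, 11 of 13 tested genes had a negative difference at ifosfamide 100 (median -0.20) and 12 of 13 at 1 µg/L (median -0.21), against a median of -0.01 over all gene models at each dose. A positive difference was found for 48.4% and 48.9% of all tested gene models at these doses. Scaled to total reads, 8 of 13 were negative at each dose, and the medians relative to all gene models were -0.17 and -0.18. The median at citalopram 1000 was -0.08, or -0.13 without library C. The 5 peroxiredoxins beside prdx1, prdx2 to prdx6, had differences from -0.52 to -0.12 at 100 µg/L, while at 1 µg/L they ran from -0.52 to -0.03. Of these, prdx2 was the most abundant, at 243 ± 80.7 and 246 ± 43.0 FPKM at 100 and 1 µg/L, against 336 ± 54.1 in ERM. The gene with the smallest p of the list was prdx6 at 100 µg/L (-0.52, SE 0.29, limma adjusted p = 0.920). At 1 µg/L it was txnrd3, a thioredoxin reductase, with 31.8 ± 1.95 FPKM against 39.1 ± 3.40 in ERM (-0.29, limma adjusted p = 0.787). At citalopram 1000 sesn1, a sestrin, had 47.2 ± 10.4 FPKM against 60.3 ± 2.40 in ERM (-0.38, limma adjusted p = 0.644), and at citalopram 10 sesn2 had a difference of 0.26 (limma adjusted p = 1.00).

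In the list for glutathione synthesis and use, which does not hold gclc or gclm, 19 of 21 tested genes had a negative difference at each ifosfamide dose, with a median of -0.28 at 100 µg/L and -0.24 at 1 µg/L. Of all tested gene models, 48.4% and 48.9% were above 0 at 100 and 1 µg/L. The red cell, epidermis and gut sums given above also lay below ERM at ifosfamide 1, and their part in this list and the thioredoxin list was not tested. Scaled to total reads, 18 of 21 were negative at 100 µg/L and 15 of 21 at 1 µg/L. The medians relative to all gene models were then -0.28 and -0.22. gsr, glutathione reductase, had the smallest p at 100 µg/L, with 4.32 ± 0.959 FPKM against 5.93 ± 0.510 in ERM (-0.40, SE 0.17, limma adjusted p = 0.920). At 1 µg/L it was glrx3, a glutaredoxin, with 12.9 ± 1.04 FPKM against 18.5 ± 2.17 in ERM (-0.48, SE 0.21, limma adjusted p = 0.787). At citalopram 1000 17 of 21 differences were positive, with a median of 0.10, but without library C the count was 7 of 21 and the median -0.11. mgst1.2, a microsomal glutathione transferase, had the smallest p at both citalopram doses, with a level of 4.09 ± 2.52 FPKM for 1000 µg/L and 3.11 ± 1.04 for 10 µg/L, against 1.14 ± 0.767 in ERM. Its log2 differences were 1.15 (SE 0.36, limma adjusted p = 0.347) and 0.97 (SE 0.36, limma adjusted p = 1.00), and both groups overlapped ERM.

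**Figure D5:**
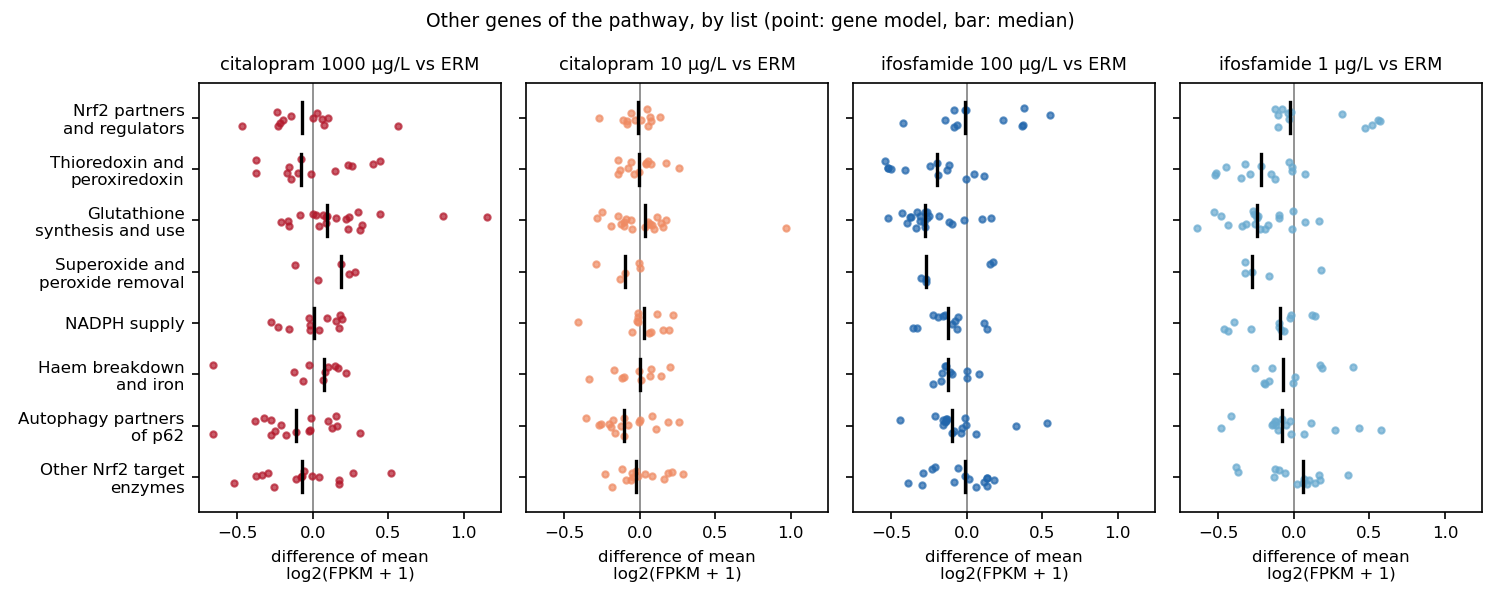
Difference of mean log2(FPKM + 1) from ERM for the 104 tested pathway genes in 8 lists (rows), 1 panel per drug group. Points are gene models and black bars are list medians. The medians of the glutathione list lie at -0.28 and -0.24 at ifosfamide 100 and 1, and no point passed the test after adjustment.

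The partners and regulators of Nrf2 showed no common direction, with medians of -0.07 and -0.01 at citalopram 1000 and 10 and -0.01 and -0.02 at ifosfamide 100 and 1 over 12 tested genes. Without library C the first of these was 0.05, with the opposite sign. nfe2l2b, the duplicate of nfe2l2a, had the smallest p of this list at ifosfamide 100, with 1.75 ± 0.740 FPKM against 2.61 ± 0.603 in ERM (-0.42, SE 0.19, limma adjusted p = 0.920). nfe2l1a, which encodes an Nrf1 factor of the same family, had it at both citalopram doses, with differences of -0.47 at 1000 µg/L (limma adjusted p = 0.543) and -0.27 at 10 µg/L (limma adjusted p = 1.00). At ifosfamide 1 it was mafgb, a small Maf partner, with 0.56 (limma adjusted p = 0.787). In the list of p62 partners in selective autophagy, calcoco1b, an autophagy receptor, had 45.5 ± 7.22 FPKM at citalopram 1000 and 54.4 ± 10.8 at ifosfamide 1, against 71.7 ± 2.14 in ERM. Its groups lay below ERM with no overlap, at doses where 3.68% and 6.98% of all tested gene models did not overlap ERM in either direction. The calcoco1b differences were -0.66 (SE 0.18, limma adjusted p = 0.258) and -0.42 (SE 0.18, limma adjusted p = 0.787). The smallest p of that list belonged to tfeb at citalopram 10 (-0.27, limma adjusted p = 1.00) and to optn at ifosfamide 100 (-0.44, limma adjusted p = 0.920). The list medians were -0.11, -0.10, -0.10 and -0.08 over 17 tested genes, in the order citalopram 1000, citalopram 10, ifosfamide 100 and ifosfamide 1, the first being -0.13 without library C.

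Of the remaining lists, superoxide and peroxide removal (5 genes) had medians of 0.19 and -0.10 at citalopram 1000 and 10 and of -0.27 and -0.28 at ifosfamide 100 and 1. Catalase, cat, had the smallest p of that list at both ifosfamide doses, with 22.7 ± 3.89 and 22.5 ± 3.18 FPKM at 100 and 1 µg/L, against 27.3 ± 1.97 in ERM (limma adjusted p = 0.920 and 0.787). sod3a had it at citalopram 1000 (0.24, limma adjusted p = 0.913) and sod3b at 10 µg/L (-0.29, limma adjusted p = 1.00), both extracellular superoxide dismutases. NADPH supply (12 genes) had medians of 0.01, 0.03, -0.12 and -0.09 in the same order of groups, with me3 (-0.28), pgls (-0.41), idh2 (-0.35) and nnt2 (-0.28) of smallest p. Haem breakdown and iron (10 genes), the neighbours of hmox1a, had medians of 0.08, 0.00, -0.12 and -0.07. There hamp, the iron hormone hepcidin, had the smallest p at citalopram 1000 (-0.66) and 10 µg/L (-0.33), blvrb at ifosfamide 100 (-0.22) and blvra at 1 µg/L (0.39), the last pair being biliverdin reductases. Other Nrf2 target enzymes (15 genes) had medians of -0.07, -0.03, -0.01 and 0.06. There abcc1 (-0.52), cbr1 (-0.23), pir (-0.29) and cbr1 again (0.36) had the smallest p in these groups. cbr1, a carbonyl reductase, lay above every ERM library at ifosfamide 1, with 6.97 ± 0.743 FPKM against 5.23 ± 0.696 (limma adjusted p = 0.787). Of all tested gene models, 6.98% did not overlap ERM at that dose, in either direction. At citalopram 1000 the list medians were also taken without library C, and no other library was left out for them. They were then -0.18 for superoxide and peroxide removal, -0.12 for NADPH supply (0.01 with all libraries) and -0.10 for haem and iron, each with the opposite sign. For the other Nrf2 targets the median was then -0.05. Scaled to total reads and taken relative to all gene models, the medians of the autophagy, NADPH and haem lists were -0.06, -0.11 and -0.09 at ifosfamide 100 and -0.07, -0.08 and -0.04 at 1 µg/L, negative as in the deposited scaling.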

How the data were processed

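RNA of zebrafish larvae was measured in 20 libraries of 5 groups. The authors deposited FPKM, fragments per kilobase of transcript scaled between libraries, for 38718 gene models with identifiers, positions and lengths. Named in the submitters' processing notes are DESeq2, featureCounts, HISAT2, fastp and the GRCz11 build, without versions or roles. Positions are given as the deposited table has them. Each FPKM multiplied by gene length came to a whole number of reads in 100% of values (within 0.01), and libraries were scaled to each other by what equalled median-of-ratios size factors. This gave depths of 10699832 to 17311011 reads. Counting errors assume independent reads and cover counting only. There were 0 columns of values left unused.

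Differences were tested with limma 3.58.1 (R 4.3.3, two-sided, intensity trend, 15 residual degrees of freedom) on log2(FPKM + 1), with 1 coefficient per group, all 20 libraries and the 19723 gene models of mean FPKM of at least 1. Benjamini-Hochberg adjustment of each p ran over all of them. The model was also run on simulated data with independent normal noise, of the same SD in every library for a given gene. Unequal spread between groups or libraries was therefore not covered by that simulation. Correlations used 100000 permutations within groups (Python 3.11.15), and, added after the data were seen, all such permutations. Alternatives changed the filter, pseudocount or scaling, or used voom on recovered reads, library weights, a replicate block, fits of 8 libraries, and each library left out in turn. Named were the 10 genes, the gene of smallest p in each pathway list and comparison with ERM, and 3 gene models each most like hmox1a, prdx1 and gclm. The latter were taken from tested gene models with an Ensembl identifier and no placeholder symbol. The peroxiredoxins prdx2 to prdx5 were added with their values known. The genes and lists were chosen with earlier results of these data known. Promoter and protein sequences were not used here.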

Additional observations from a re-analysis of the deposited data

Results flagged for a closer look

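In 5 of the 50 sets of 4 libraries (10 genes in 5 groups), 1 library lay apart from the other 3 by more than Dixon's 95% critical value for the gap over the range. Chance gives about 1 such set in 20. prdx1 was at 11.5 FPKM in library C of citalopram 1000, against 5.83 to 6.11 in the other 3 libraries of that group. Recovered reads of prdx1, which are not corrected for depth, were 349 in library C and 296 to 349 in the other 3. Depth in this group ran from 11725647 to 17311011 reads, with 13654523 in library C. The size factor of library C was the lowest of all 20 libraries (0.684). The part of scaling in this prdx1 value was not tested. nqo1 was at 17.8 FPKM in library A of citalopram 10, against 29.0 to 30.0 in its other 3 libraries. keap1a was at 5.56 FPKM in the same library, against 9.90 to 10.4 in the other 3. sqstm1 was at 37.9 FPKM in library B of ifosfamide 100, against 25.3 to 27.2 in the other 3. hmox1a was at 13.0 FPKM in library A of ERM, against 5.92 to 7.00 in the other 3.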

How the results depend on the processing

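None of the 10 genes passed in any comparison under the alternatives run, except with library weights, where 1 passed at ifosfamide 100 (prdx1), 2 at ifosfamide 1 and 2 over all drug groups (prdx1 and gclc in both). Library weights were estimated gene by gene, because the default estimate did not converge. They moved the count of gene models past the threshold to 167 (6 with equal weights) at citalopram 1000, 6 (2) at citalopram 10, 860 (0) at ifosfamide 100, 2033 (0) at ifosfamide 1, 2 (0) between the ifosfamide doses and 2149 (0) over all drug groups. A mean FPKM of at least 5 gave 15 at citalopram 1000, 2 at ifosfamide 100 and 4 over all drug groups. Without a filter the counts were 0 at citalopram 10, 1 at ifosfamide 100, 2 between the ifosfamide doses and 2 over all drug groups. voom gave 0 at citalopram 10. Scaling to total reads gave 2 at ifosfamide 100. The fit of the 8 libraries compared gave 0 at citalopram 1000 and 1 at ifosfamide 100. Without library C of citalopram 1000 the counts were 4 at citalopram 10 and 2 at ifosfamide 100. Leaving out 1 library in turn gave 0 to 40 at citalopram 1000, 0 to 2 at citalopram 10, 0 to 5 at each ifosfamide dose and 0 to 25 over all drug groups, the highest of the first and last without library D of citalopram 1000. The replicate block gave 0 in each comparison, for the 10 genes and for all gene models. Letter E occurs only in ERM, so the block fits that library exactly. Comparisons with ERM under the block thus rest on ERM libraries A, B and C. The letters did not clearly pair the libraries. The median correlation of deviations was 0.02 over 36 same-letter pairs, 13 of them over 0.1. Over 124 pairs of different letters it was -0.004, with 36 over 0.1. The causes of these changes were not tested. Of 60 differences of the 10 genes, 28 changed sign under at least 1 alternative, in 89 of 1014 values, and the largest of the 28 was 0.25 in size. The prdx1 difference ranged from -0.68 to -0.48 at ifosfamide 100 (adjusted p = 0.0248 to 1.00) and from -0.86 to -0.60 at ifosfamide 1 (limma adjusted p = 0.00232 to 0.999). srxn1 had the lowest depth of the 10 genes, with 3 to 22 reads per library.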
